A study of Homo sapiens with 2 samples.

Results

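Cathepsins are the proteases of the lysosome, and cystatins are the proteins that hold the cysteine cathepsins in check. The members described here are 10 genes picked by symbol: the cathepsins CTSA, CTSB, CTSC, CTSD, CTSH, CTSL, CTSS and CTSZ, and the cystatins CST3 and CSTB. All 10 were found among the 11697 gene symbols of the deposited table, with 30 of its 29373 transcripts. The cells were THP-1, an established human line of monocytic acute myeloid leukaemia. One culture was exposed for 48 h to 2 µM of a compound that the labels name only OPA1 (here a treatment, not the mitochondrial gene of that symbol), and the other to the solvent DMSO for 48 h. The cultures shared the cell line and the serum-containing medium, and the title places them in a study of opioid receptor signalling and TET-dependent DNA demethylation in leukaemia.

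Most cathepsins are made as inactive precursors in the endoplasmic reticulum, tagged with mannose 6-phosphate in the Golgi, and activated in the acid of the lysosome. They fall into 3 chemical classes: CTSB, CTSC, CTSH, CTSL, CTSS and CTSZ are cysteine proteases, CTSD is an aspartic protease and CTSA a serine carboxypeptidase. Monocytes and macrophages are rich in them, and use them to digest engulfed material, to prepare peptides for MHC class II molecules and to activate the enzymes of granules. CST3 encodes cystatin C, a secreted inhibitor, and CSTB encodes cystatin B, an inhibitor of the cytosol and nucleus.

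With 1 library in each group there is no replicate, and neither an error nor a p-value can be attached to any difference given here. Values are the authors' FPKM, fragments per kilobase of transcript per 1000000 mapped fragments, summed over the listed transcripts of a gene unless a transcript is named. Log2 ratios are those of OPA1 over DMSO after 1 FPKM was added to each value, and a gene counted as 2-fold apart at a ratio of 2 or more on that scale. The listed FPKM summed to 331515 in the OPA1 library and 325059 in the DMSO library, and the number of reads is unknown. Of 11 markers of monocytic leukaemia cells 10 were listed, all but CD14, and none of these was 2-fold apart. Among the 10, 6 were higher and 4 lower with OPA1. CD68 had the widest ratio, at 14.2 FPKM with OPA1 and 20.7 FPKM with DMSO (log2 ratio -0.52). The summed level of the 10 was 416 FPKM with OPA1 and 393 FPKM with DMSO. Of 18 markers of lymphoid, erythroid, epithelial and fibroblast cells, NKG7 alone reached a mean of 1 FPKM, at 27.9 FPKM with OPA1 and 26.9 FPKM with DMSO.

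The coding stretches in which the main transcripts of CTSH and CTSD differ are printed first, because among the members these 2 genes had the largest share of FPKM on another transcript in the other library. Lower case marks the 18 coding bases on either side, and capitals mark the bases that 1 transcript has and the other lacks. They were read 5′ to 3′ from the GENCODE release 29 transcript sequences (build GRCh38), matched by transcript ID. The CTSH stretch lies at chr15:78944897-78944968 on the minus strand, and the CTSD stretches at chr11:1753863-1754011 and chr11:1753644-1753820 on the minus strand; those of CTSD cross introns, which are not printed.
CTSH-201: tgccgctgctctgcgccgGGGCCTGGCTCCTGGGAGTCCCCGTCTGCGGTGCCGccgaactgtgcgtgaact
CTSH-218: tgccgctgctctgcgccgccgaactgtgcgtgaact
CTSD-201: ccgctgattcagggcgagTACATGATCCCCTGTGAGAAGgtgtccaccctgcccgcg
CTSD-211: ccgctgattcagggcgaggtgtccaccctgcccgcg
CTSD-201: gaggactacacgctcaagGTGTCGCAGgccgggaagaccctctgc
CTSD-213: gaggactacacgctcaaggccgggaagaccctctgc

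CTSH-218 lacks 36 bases inside exon 1 of CTSH-201, coding bases 32 to 67 counted from the first base of the start codon. CTSD-211 lacks the first 21 bases of exon 8 of CTSD-201 (coding bases 973 to 993), and CTSD-213 the first 9 bases of exon 9 of CTSD-201 (coding bases 1072 to 1080). All of these lengths are multiples of 3, so each reading frame continues.

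At the level of genes CTSS was the member farthest apart. None of the 10 genes was 2-fold apart; among the 10601 genes averaging 1 FPKM or more the share was 3.96% (1.97% higher and 1.99% lower with OPA1), and among the 4786 genes averaging 10 to 200 FPKM, the range that holds every member, it was 2.70%. With shares this small, the absence of a 2-fold gene among 10 members is no result about the members. Their median absolute log2 ratio was 0.13, and the quartiles of the genes averaging 10 to 200 FPKM were -0.13 and 0.13. In the OPA1 library 7 members were higher and 3 lower, against 5294 genes higher and 5307 lower among all genes. The median log2 ratio of the members was 0.08, beside 0.00 over all genes. The 8 cathepsins together stood at 254 FPKM with OPA1 and 258 FPKM with DMSO, and the 2 cystatins at 195 FPKM with OPA1 and 150 FPKM with DMSO.

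**Figure D1:**
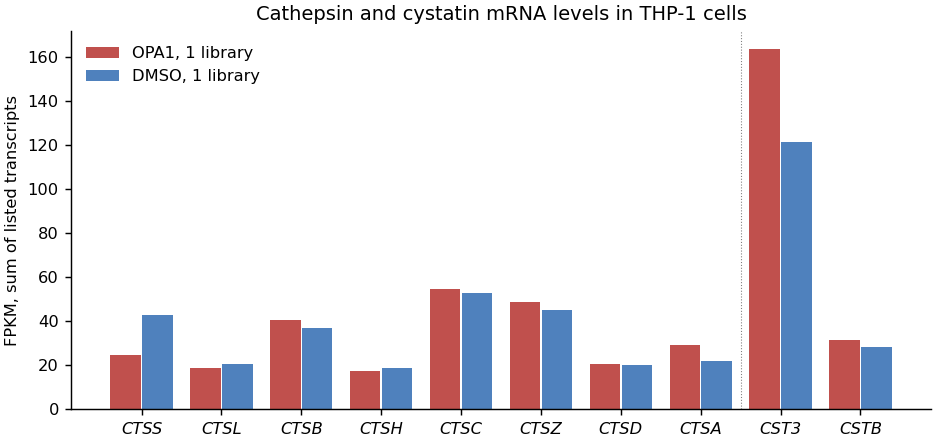
FPKM of each member gene (vertical axis, sum of its listed transcripts) in the OPA1 library (left bar, red) and the DMSO library (right bar, blue), with the cystatins right of the dotted line. CST3 is the highest in both libraries, at 164 FPKM with OPA1 and 121 FPKM with DMSO, and CTSS is the gene with the tallest DMSO bar relative to its OPA1 bar.

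Among the endopeptidases, CTSS and CTSL gave different pictures. CTSS, which in antigen-presenting cells cleaves the invariant chain of MHC class II and stays active near neutral pH (chromosome 1, 150702672 to 150738433, hg19), was at 24.7 FPKM with OPA1 and 42.6 FPKM with DMSO. It was thus 1.72-fold lower with OPA1 (log2 ratio -0.76), a distance that 4.74% of the genes at 10 to 200 FPKM matched or passed in either direction. This is a description of these 2 libraries and not a test, and in RNA of a whole culture fewer cells with the transcript cannot be told apart from less of it per cell. Nearly all of the signal was CTSS-201, the transcript of the full protease, at 24.7 FPKM with OPA1 and 42.0 FPKM with DMSO. CTSS-202, which skips an exon of 150 coding bases, was listed at 0 with OPA1 and at 0.62 FPKM with DMSO, so the division of the listed FPKM between the pair differed by 1.46% of the gene's sum. Transcripts of CTSS outside the table were not analysed here.

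CTSL, the broad lysosomal endopeptidase nearest in task to CTSS (chromosome 9, 90340434 to 90346307), was at 18.7 FPKM with OPA1 and 20.4 FPKM with DMSO (log2 ratio -0.12). CTSL-203 and CTSL-201 share 1 coding sequence and differ outside it; they stood at 10.2 and 7.87 FPKM with OPA1, and at 11.4 and 8.02 FPKM with DMSO. Both were slightly lower with OPA1. The shorter CTSL-202 was at 0.66 FPKM with OPA1 and 0.95 FPKM with DMSO. CTSS was 1.32 times the level of CTSL in the OPA1 library and 2.09 times in the DMSO library. CTSB, an endopeptidase that also removes dipeptides from the carboxyl end (chromosome 8, 11700033 to 11725738), was at 40.7 FPKM with OPA1 and 36.9 FPKM with DMSO (log2 ratio 0.14). Its 3 listed transcripts share 1 coding sequence, and CTSB-228 held 87.9% of the gene's FPKM with OPA1 and 81.3% with DMSO.

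**Figure D2:**
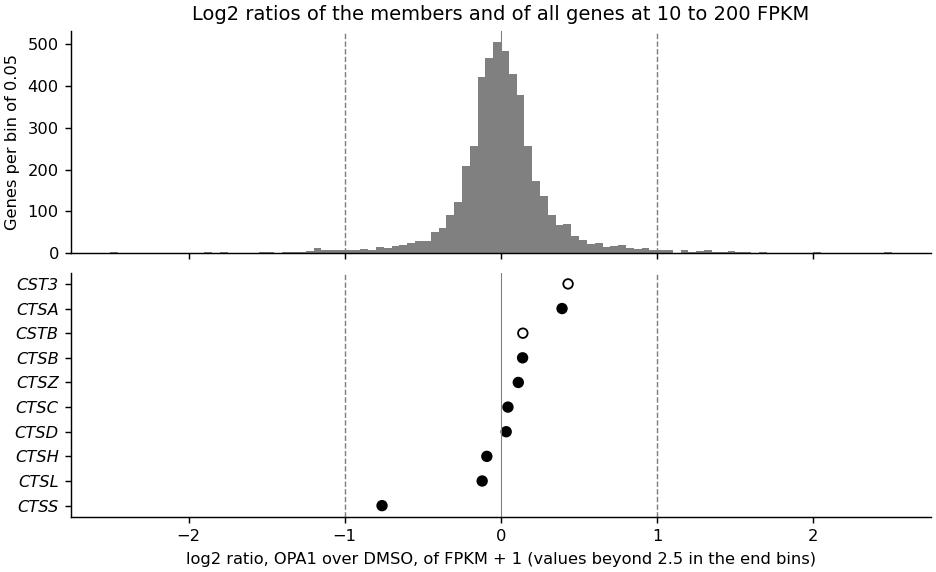
Upper panel: number of genes (vertical axis) by log2 ratio of OPA1 over DMSO (horizontal axis, FPKM + 1) for all 4786 genes averaging 10 to 200 FPKM. Lower panel: the 10 members on the same axis (filled circles, cathepsins; open circles, cystatins), with dashed lines at 2-fold; CTSS, at -0.76, is the member farthest from 0, and no member lies beyond a dashed line.

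Among the cysteine exopeptidases, which trim proteins from an end, CTSC, CTSZ and CTSH had log2 ratios of summed FPKM between -0.09 and 0.11. CTSC, also called dipeptidyl peptidase I, activates the serine proteases of granules (chromosome 11, 88026760 to 88070955). It was the highest cathepsin among the members in both libraries, at 54.3 FPKM with OPA1 and 52.7 FPKM with DMSO (log2 ratio 0.04). The full-length CTSC-201 stood at 47.3 FPKM with OPA1 and 47.0 FPKM with DMSO. The short forms CTSC-203 and CTSC-206, which lack 1071 of the coding bases of CTSC-201, were at 4.13 and 2.42 FPKM with OPA1, and at 3.45 and 1.51 FPKM with DMSO. The partial model CTSC-204 was at 0.45 FPKM with OPA1 and 0.73 FPKM with DMSO. CTSZ, a carboxypeptidase also known as cathepsin X (chromosome 20, 57570240 to 57582302), has 1 listed transcript, which was at 48.6 FPKM with OPA1 and 44.9 FPKM with DMSO (log2 ratio 0.11).

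CTSH, an aminopeptidase (chromosome 15, 79213400 to 79237433), was the lowest member in both libraries, at 17.3 FPKM with OPA1 and 18.5 FPKM with DMSO (log2 ratio -0.09). Its nearly level sum hid the widest exchange of the family. CTSH-201 was at 16.8 FPKM with OPA1 and 7.96 FPKM with DMSO, and CTSH-218 at 0.48 FPKM with OPA1 and 10.5 FPKM with DMSO. CTSH-201 thus held 97.2% of the gene's FPKM with OPA1 and 43.0% with DMSO. The stretch missing from CTSH-218 lies near the start of the coding sequence, where proteins bound for the lysosome carry their signal peptide. CTSH-218 is a model with 3 noncoding bases, whereas CTSH-201 has 1185, so of this pair CTSH-201 alone can take reads from untranslated regions.

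Because FPKM is per length, the exchange in CTSH changes what the sum means. Weighting each transcript's FPKM by its annotated length, a calculation chosen after these values were seen, gives the fragments of the whole gene per 1000000 mapped (FPM). For CTSH this was 37.3 FPM with OPA1 and 27.7 FPM with DMSO, 1.35-fold higher with OPA1 (log2 ratio 0.42), where the sum of FPKM was lower. The gap of 0.51 between the log2 ratios from these calculations was matched or passed by 3.14% of all genes. The direction for CTSH therefore depends on how its transcripts are combined.

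CTSD, the major aspartic protease of lysosomes (chromosome 11, 1773982 to 1785222), showed a smaller form of the same pattern. Its sum was at 20.6 FPKM with OPA1 and 20.1 FPKM with DMSO (log2 ratio 0.03). CTSD-213, without the 9 bases of exon 9, was at 4.47 FPKM with OPA1 and 12.4 FPKM with DMSO. CTSD-211, without the 21 bases of exon 8, was at 7.53 FPKM with OPA1 and 3.45 FPKM with DMSO. The reference form CTSD-201 was at 4.34 FPKM with OPA1 and 3.48 FPKM with DMSO. CTSD-205, a model with an open 3′ end, was at 4.26 FPKM with OPA1 and 0.82 FPKM with DMSO. The leading transcript of CTSD was therefore CTSD-211 with OPA1 and CTSD-213 with DMSO. Weighted by length, CTSD was at 34.1 FPM with OPA1 and 38.2 FPM with DMSO (log2 ratio -0.16), so its direction also depends on the way transcripts are combined.

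CTSA, a serine carboxypeptidase that also shields beta-galactosidase and neuraminidase in a lysosomal complex (chromosome 20, 44519683 to 44527459), had the highest ratio of summed FPKM of the 8 member cathepsins, although CTSH passed it when transcripts were weighted by length (log2 ratio 0.42 against 0.37) or when the most abundant transcript was used (0.99 against 0.61). CTSA was at 29.005 FPKM with OPA1 and 21.9 FPKM with DMSO (log2 ratio 0.39), and 13.7% of the genes at 10 to 200 FPKM were as far apart in either direction. The leading CTSA-203 was at 20.4 FPKM with OPA1 and 13.0 FPKM with DMSO. CTSA-201, which encodes the same protein behind other leader exons, was listed at 0 with OPA1 and at 2.82 FPKM with DMSO. Together the transcripts of this coding sequence stood at 20.4 FPKM with OPA1 and 15.8 FPKM with DMSO. CTSA-204, whose coding sequence is 54 bases longer, was at 4.68 FPKM with OPA1 and 3.005 FPKM with DMSO, and CTSA-202 at 2.49 FPKM with OPA1 and 3.07 FPKM with DMSO. CTSA-202 lacks 51 coding bases of CTSA-203, a whole exon, and has 54 that CTSA-203 lacks. The partial model CTSA-205 was at 1.44 FPKM with OPA1 and listed at 0 with DMSO. CTSA-203, CTSA-204 and CTSA-205 were thus higher with OPA1, and CTSA-201 and CTSA-202 lower. CTSA-203 had the largest difference in FPKM, and CTSA-205 averaged only 0.72 FPKM.

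**Figure D3:**
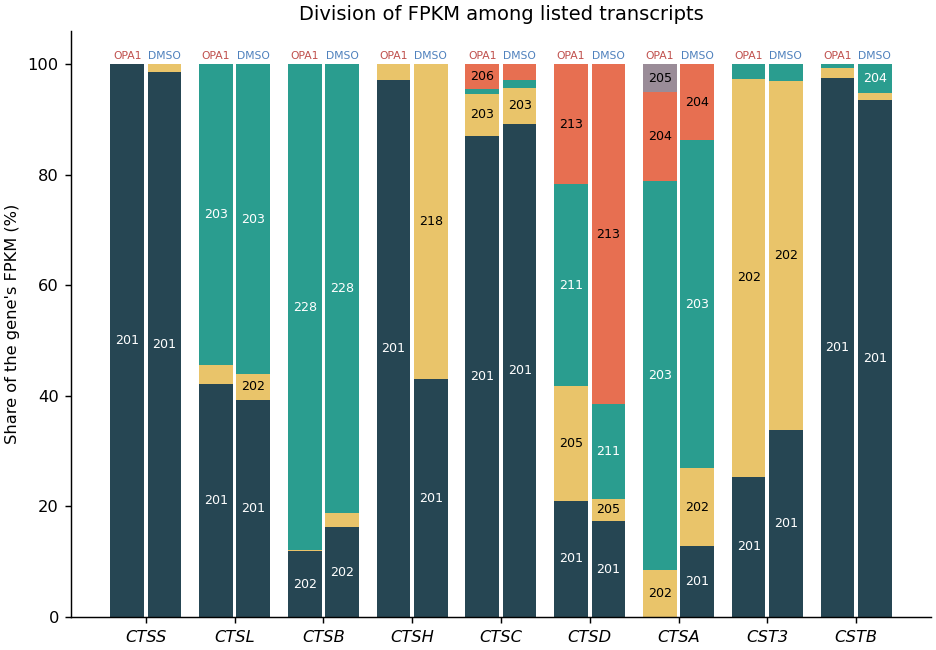
Share of each gene's FPKM (vertical axis, %) held by each listed transcript in the OPA1 library (left bar of each pair) and the DMSO library (right bar), for the 9 members with more than 1 listed transcript; numbers in the bars are transcript suffixes. CTSH-201 fills 97.2% of the OPA1 bar and 43.0% of the DMSO bar, and CTSD-213 fills 21.7% of the OPA1 bar and 61.4% of the DMSO bar.

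Both member cystatins were higher with OPA1. CST3 (chromosome 20, 23607343 to 23619110) was the most abundant member, at 164 FPKM with OPA1 and 121 FPKM with DMSO. It was 1.35-fold higher with OPA1 (log2 ratio 0.43), a distance that 11.9% of the genes at 10 to 200 FPKM matched or passed in either direction. The higher sum came almost wholly from CST3-202, at 118 FPKM with OPA1 and 76.7 FPKM with DMSO. CST3-201 was at 41.5 FPKM with OPA1 and 41.0 FPKM with DMSO, and CST3-203 at 4.33 FPKM with OPA1 and 3.57 FPKM with DMSO. All 3 encode the same protein of 438 coding bases and differ in their untranslated exons.

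CSTB (chromosome 21, 45192392 to 45196326) was at 31.2 FPKM with OPA1 and 28.3 FPKM with DMSO (log2 ratio 0.14). CSTB-201 was at 30.5 FPKM with OPA1 and 26.4 FPKM with DMSO. CSTB-204, which keeps an intron and has a shorter reading frame, was at 0.22 FPKM with OPA1 and 1.47 FPKM with DMSO. CSTB-203 was at 0.52 FPKM with OPA1 and 0.37 FPKM with DMSO. The 6 member cysteine cathepsins belong to the class that cystatins inhibit. They summed to 1.05 times the 2 member cystatins in the OPA1 library and 1.44 times in the DMSO library. These sums leave out CSTA, a cystatin outside the members that was lower with OPA1, at 215 FPKM against 229 FPKM with DMSO. CTSS alone was 0.15 times the level of CST3 with OPA1 and 0.35 times with DMSO. These are ratios of mRNA levels per length and say nothing of protein.

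The order of the levels was much the same in both libraries. CST3, CTSC and CTSZ were the 3 highest in each, and CTSH the lowest. CTSS was 4th with DMSO and 7th with OPA1, which placed it below CTSB, CSTB and CTSA in the OPA1 library. Among all listed genes CTSS ranked 2363rd with OPA1 and 1295th with DMSO. As a share of the summed cathepsins, CTSS made up 9.74% with OPA1 and 16.5% with DMSO, and CTSA 11.4% with OPA1 and 8.48% with DMSO. Without CTSS the other cathepsins summed to 229 FPKM with OPA1 and 215 FPKM with DMSO. With no replicates, neighbours such as CTSD, CTSL and CTSH, which lay between 17.3 and 20.6 FPKM in both libraries, cannot be ranked with any error.

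Over the transcripts the members looked like the rest of the table. Of the 30 transcripts 23 averaged 1 FPKM or more, and 4 of these (17.4%) were 2-fold apart, where the share over 19623 transcripts was 18.2%. CTSD-205 was higher with OPA1, where 9.09% of all transcripts were 2-fold higher, and CTSH-218, CTSD-213 and CTSA-201 were lower, where 9.12% of all were 2-fold lower. On plain FPKM CTSH-201 (2.12-fold higher with OPA1) and CTSD-211 (2.18-fold higher) also passed 2-fold, but not after 1 FPKM was added. A share near that of all transcripts is no result about the members. In 8 of the 10 genes the same transcript led in both libraries, the exceptions being CTSH and CTSD. At least 25% of the FPKM moved to another transcript in these 2 of the 9 members with several transcripts, by 54.2% in CTSH and 39.8% in CTSD. Over 7204 such genes the share that passed 25% was 33.1%. The 30 transcripts hold 24 distinct coding sequences, 4 of them in models annotated as incomplete at an end. Grouping transcripts of CTSA by coding sequence lowered its exchange to 7.34%, against 18.3% by transcript, whereas in CTSH and CTSD every transcript has its own coding sequence and the exchange stayed as it was.

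**Figure D4:**
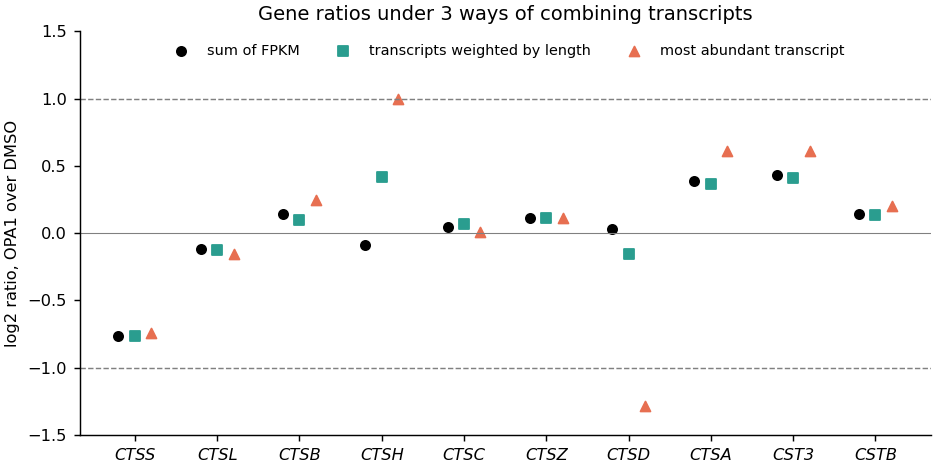
Log2 ratio of OPA1 over DMSO (vertical axis) for each member from the sum of FPKM (black circles), from transcripts weighted by length (green squares) and from the most abundant transcript alone (orange triangles), with dashed lines at 2-fold. The most abundant transcript was picked by its mean over both libraries. It is CTSD-213 for CTSD, which led only with DMSO, and CTSH-201 for CTSH, which led only with OPA1. CTSS stays between -0.77 and -0.74 in all 3, while CTSH and CTSD lie on both sides of 0.

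Promoter sequence was compared for the 7 members with an entry in the RefSeq promoter table (GRCh38.p14, 250 bases before to 50 after the gene's start), namely CST3, CTSA, CTSC, CTSD, CTSH, CTSL and CTSZ. The motif searched was CACGTG, the core of the element bound by TFEB and its relatives, the transcription factors of lysosomal genes; it reads the same on both strands. CTSA and CTSD held it, 2 of 7, against 7.26% of 35116 promoter windows. The longer TCACGTGA, which contains the shorter motif, was found in CTSA, and in 0.98% of all windows. The excerpts of 30 bases below, shown because these are the members with the motif, have the motif in capitals. They lie at chr20:45891289-45891318 on the plus strand and chr11:1763957-1763986 on the minus strand.
CTSA: ctgtCACGTGgcgccggagttCACGTGact
CTSD: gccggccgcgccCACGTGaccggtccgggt
A match is a run of letters and not a bound site. All 4 genes of these factors were measured. TFEB was at 4.07 FPKM with OPA1 and 4.08 FPKM with DMSO, TFE3 at 8.13 FPKM with OPA1 and 7.99 FPKM with DMSO, and TFEC at 13.4 FPKM with OPA1 and 13.1 FPKM with DMSO. MITF, the lowest of the 4, was at 1.73 FPKM with OPA1 and 1.10 FPKM with DMSO.

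The related genes of the pathway were read from lists, whose counts are descriptions and whose medians stand beside 0.00 for all genes. A first list held 10 genes, namely other cathepsins, legumain and the peptidase TPP1, and 5 of them were measured at a mean of at least 1 FPKM. TPP1 was among these 5, and legumain was not listed. With OPA1, 4 were higher and 1 was lower, and the median log2 ratio of 0.20 was the value of TPP1. CTSK, a collagen-degrading cysteine cathepsin, was at 12.3 FPKM with OPA1 and 8.49 FPKM with DMSO (log2 ratio 0.49). CTSV, a close relative of CTSL with which it can share reads, was at 10.5 FPKM with OPA1 and 8.98 FPKM with DMSO, and the tripeptidyl peptidase TPP1 at 46.9 FPKM with OPA1 and 40.8 FPKM with DMSO. Of the other cystatins and protease inhibitors 5 of 20 were measured, 3 higher and 2 lower, with a median of 0.05. Their widest ratios were those of SERPINB8, at 17.4 FPKM with OPA1 and 13.6 FPKM with DMSO, SERPINB1, at 14.3 FPKM with OPA1 and 12.7 FPKM with DMSO, and SERPINB6, at 18.2 FPKM with OPA1 and 20.3 FPKM with DMSO. SERPINB6 had 40.0% of its FPKM on another transcript in the other library. CSTA, the cytosolic cystatin A, was named after its level was seen: it exceeded both member cystatins, at 215 FPKM with OPA1 and 229 FPKM with DMSO.

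The partners and substrates of single members were as follows. For CTSA, beta-galactosidase (GLB1) was at 23.8 FPKM with OPA1 and 20.8 FPKM with DMSO, with 71.1% of its FPKM on another transcript. Neuraminidase (NEU1) was at 8.80 FPKM with OPA1 and 10.5 FPKM with DMSO, and GALNS at 3.72 FPKM with OPA1 and 2.84 FPKM with DMSO. For CTSC, 4 of 8 granule proteases and their relatives were measured, 3 higher and 1 lower with OPA1, with a median of 0.17. Among them AZU1, which has lost its protease activity, was at 845 FPKM with OPA1 and 702 FPKM with DMSO, neutrophil elastase (ELANE) at 448 FPKM with OPA1 and 363 FPKM with DMSO, and CTSG at 296 FPKM with OPA1 and 317 FPKM with DMSO. For CTSS, 5 of 10 genes of the class II invariant chain and peptide loading were measured. All 5 were higher with OPA1, with a median of 0.45 and none 2-fold apart. HLA-DPB1, named for its direction, was listed below the minimum mean and was lower, at 0.44 FPKM with OPA1 and 0.52 FPKM with DMSO. HLA-DPA1 was at 5.24 FPKM with OPA1 and 3.13 FPKM with DMSO. The lysosomal thiol reductase IFI30 was at 3.44 FPKM with OPA1 and 2.07 FPKM with DMSO. HLA-DRA, whose log2 ratio was the median, was at 19.5 FPKM with OPA1 and 14.05 FPKM with DMSO. HLA genes resemble each other, and their reads may be split between them. HLA-DRA had 39.2% of its FPKM on another transcript in the other library, and HLA-DMA, named for its exchange, 30.3%. The share was 6.29% in HLA-DPA1 and 4.89% in CD74. Other ways of combining the transcripts of these genes were not examined. The invariant chain CD74, the substrate of CTSS and named for that reason, was at 83.5 FPKM with OPA1 and 77.1 FPKM with DMSO. In summed FPKM CTSS was thus lower while the 5 measured genes of this list were higher.

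Genes that deliver enzymes to the lysosome went both ways. Of 16 genes for sorting and tagging 14 were measured, of which 5 were higher with OPA1 and 9 were lower (median log2 ratio -0.04). AP1M1, a subunit of the clathrin adaptor AP-1, was at 24.4 FPKM with OPA1 and 8.07 FPKM with DMSO (log2 ratio 1.49), with 80.6% of its FPKM on another transcript in the other library. AP1S1, another subunit of the same adaptor, was at 15.4 FPKM with OPA1 and 28.5 FPKM with DMSO, and SCARB2, the receptor that carries glucocerebrosidase, at 10.4 FPKM with OPA1 and 16.0 FPKM with DMSO. SCARB2 had 33.1% of its FPKM on another transcript in the other library. Of the other lysosomal hydrolases and activators 32 of 34 were measured, 20 higher and 12 lower, with a median of 0.14. None was 2-fold higher and 2 were 2-fold lower with OPA1, where 1.99% of all genes were 2-fold lower: MAN2B1, an alpha-mannosidase, at 6.93 FPKM with OPA1 and 16.2 FPKM with DMSO, and HGSNAT, an enzyme of heparan sulfate breakdown, at 10.5 FPKM with OPA1 and 22.1 FPKM with DMSO. MANBA, the beta-mannosidase, was at 6.31 FPKM with OPA1 and 3.03 FPKM with DMSO, with 98.6% of its FPKM on another transcript. It passed 2-fold on plain FPKM but not after 1 FPKM was added (log2 ratio 0.86). The same held in the other direction for NAGLU, named for that reason, at 2.29 FPKM with OPA1 and 4.81 FPKM with DMSO (log2 ratio -0.82).

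**Figure D5:**
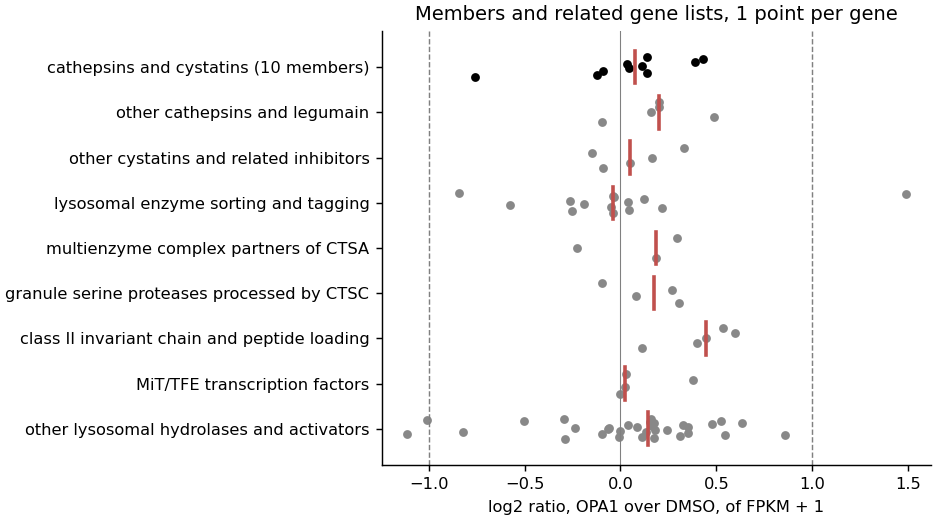
Log2 ratio of OPA1 over DMSO (horizontal axis, FPKM + 1) of the 10 members (top row, black) and of the measured genes of each related list (grey), 1 point per gene, with the median of each row as a red bar and dashed lines at 2-fold. The members' median is 0.08, and CTSS lies left of the other members at -0.76.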

How the data were processed

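Total RNA of both cultures was extracted with Trizol and made into standard Illumina libraries, per the labels' protocols. The authors deposited 1 table of FPKM per transcript (unit per the file headers). HISAT and StringTie, with edgeR and the build hg19, are named without roles in the submitters' processing notes. The 29373 listed transcripts were all protein-coding and reached 0.5 FPKM in at least 1 library. Depth is unknown: no step of 1 fragment was found in low values, so counts were not recovered. No test was possible with 1 library in each group.

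Transcripts were summed per symbol, genes averaging 1 FPKM or more kept, and log2 ratios taken after adding 1 FPKM. Members and lists were chosen with earlier results of these data known. Named were all members and their transcripts, up to 3 genes per list with the widest ratios, and genes said to be chosen otherwise. Transcript structures came from GENCODE release 29 by ID (30 of 30 versions matched), and lengths for 29240 transcripts; gene coordinates are hg19. The summing was run on simulated data without noise, which checks the code and not the division of reads among transcripts. Alternatives were another pseudocount, other minimum levels, 3 scalings, the most abundant transcript and, added later, weighting by length. Scripts ran on numpy 2.4.6 and pandas 2.3.3 under Python 3.11.15, with figures by matplotlib 3.10.9.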

Additional observations from a re-analysis of the deposited data

How the results depend on the processing

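With 1 library per group, no spread between replicates exists and no library can be left out; the limits are those of 2 libraries of unknown depth and of FPKM divided among similar transcripts by the authors' software. No paired analysis was possible because each group has 1 library. CTSS was lower with OPA1 under all 8 settings (log2 ratio -0.81 to -0.74), and CST3 (0.40 to 0.61) and CTSA (0.37 to 0.61) were higher. Several settings could not have changed this: the minimum levels leave these ratios as they are, and another pseudocount cannot reverse a direction. Centring left CTSS at -0.76. Only the most abundant transcript and weighting by length recombine transcripts, with CTSS at -0.74 and -0.77, CST3 at 0.61 and 0.41, and CTSA at 0.61 and 0.37. Using the most abundant transcript, picked by its mean over both libraries, reversed CTSD (-1.29) and CTSH (0.99). It put 1 member and 1199 of all genes at 2-fold. The number of genes kept under that setting was not recorded, so no share over all genes stands beside these counts. Weighting by length also reversed CTSD and CTSH (-0.16 and 0.42), and both genes had unequal transcripts exchanged. The members' 2-fold transcripts numbered 2 at a minimum of 5 FPKM and 9 after rescaling to 1000000, which enlarges values against the added 1 FPKM. The share over all transcripts was not computed under these settings, so neither count is a result about the members. All genes at 2-fold numbered 640 with a pseudocount of 0.1 FPKM, 234 at a minimum of 5 FPKM and 771 after rescaling. The number of higher members was 7 under each setting, which the minimum levels and another pseudocount could not have changed. With the most abundant transcript or weighting by length the higher members were not the same, because CTSD turned lower and CTSH higher.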
